A study of Mus musculus with 8 samples.

Results

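The transcript of Trp53inp1, a gene that p53 switches on under stress, was read together with that of p53 itself (Trp53) and 8 further genes of its programme (Mdm2, Ccng1, Gadd45a, Sesn1, Phlda3, Perp, Zmat3 and Pmaip1) in mouse vascular smooth muscle cells (VSMC). Every probe whose symbol in the deposited array table is one of these 10 names was taken, 19 probes of 25697, for 10 of 18138 gene symbols. The cells were primary aortic VSMC grown out of explants of several mouse aortas. They were transfected with a mimetic of moR-21, a microRNA-offset RNA cut from the same primary transcript as miR-21, or with a scrambled control oligo, each at 5 nM, and RNA was collected 48 h later. Each treatment had 3 samples. Repeat arrays A and B exist for control sample 1 and for moR-21 sample 3, which makes 8 Illumina arrays for 6 samples. The labels give no genotype, age or further agent for any group. They name the cells as smooth muscle in the source field and as "AoECs" in the description field, so the cell type was checked on its markers, as given with the other gene lists.

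p53 is a transcription factor that is held at a low level in unstressed cells by the ubiquitin ligase Mdm2, itself a p53 target. When DNA is damaged or cells are stressed, p53 is stabilized and raises genes that stop the cell cycle, repair DNA, limit growth signalling or cause apoptosis. Trp53inp1 encodes a nuclear stress protein that takes part in p53 activation and, in the cytoplasm, in autophagy. In VSMC, p53 is known as a brake on growth after vessel injury.

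Promoter windows in RefSeq (GRCm38.p6, from 250 bases before to 50 after a gene start) were listed for 6 of the 10 genes, in 7 windows, with a pair of starts for Sesn1. No window was listed for Trp53inp1, Perp, Zmat3 or Pmaip1. Each window was searched on both strands for the p53 response element consensus, which is 20 bases long and made of a repeated block of 10. Stretches with the CNNG core in place in each block were compared with it, and the one with the fewest mismatches was kept. The 3 matches with the fewest mismatches are shown, those of Ccng1, Trp53 and Sesn1. These genes were also called changed below, while Trp53inp1, called too, had no window, and a link of matches with calls was not tested. The capitals mark the CNNG cores.

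Ccng1: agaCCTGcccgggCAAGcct

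Trp53: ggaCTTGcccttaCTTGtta

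Sesn1: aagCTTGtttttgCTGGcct

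The Ccng1 match had 1 mismatch and lay on the minus strand at chr11:40755462-40755481. This was 195 to 176 bases before the start listed for its window, which need not be the outer end of the gene. A match as close was found in 22 of 32851 mouse promoter windows of this length (0.067%). The Trp53 match, at chr11:69580284-69580303 on the plus strand, and the Sesn1 match, at chr10:41887266-41887285 on the plus strand before the second listed start, had 3 mismatches each, as close as in 453 windows (1.38%). The best such match of Phlda3 had 5 mismatches, a closeness that 12.4% of windows reached. Those of Mdm2, Gadd45a and the other Sesn1 start had between 8 and 12 among the stretches with both cores, and stretches without a core were not compared. These are matches of letters in a short window, and binding of p53 was not measured. Sequence more than 50 bases past a start, introns included, was not searched. Many mismatches here therefore do not show that a gene lacks a p53 element. The genes with these matches did not move together, as given below.

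Of the 19 probes, 16 were detected (detection p-value under 0.01), each of them on all 8 arrays, and they covered 9 of the 10 genes. The intensities were quantile normalized and log2 transformed, and limma compared the treatments over all 11651 detected probes. A call needed a change of more than 1.3-fold, which is 0.38 on the log2 scale, together with a Benjamini-Hochberg adjusted p under 0.002. The brightest detected probe stands for its gene, and the dimmer probes are given beside it. Of the 9 genes, Trp53inp1, Ccng1 and Sesn1 were called down-regulated, and Trp53 was called up-regulated, which makes 44.4% of them. Without control sample 1 the calls were those of Trp53inp1 and Ccng1, 2 of the 9 genes, and with normexp background correction from the detection p-values that of Ccng1 alone, 1 of the 9. Among all 8727 detected genes the call was made for 7.79%, with 4.38% lower and 3.41% higher. Trp53inp1 had been picked out by the study from these same arrays together with predicted seed matches. Its call here is therefore not independent evidence of its direction. The paper separately reported lower Trp53inp1 mRNA after the mimetic in VSMC by quantitative PCR. Over single probes, 5 of the 16 were called lower and 2 higher, against 3.85% and 3.12% of all detected probes. The median log2 fold change of the 9 genes was 0.03 and that of all genes was 0.01, so that the members had no shared direction. The median of the absolute values was 0.33 in the members and 0.10 in all genes. The 10 genes were chosen with earlier results of these data known. Their shares and sizes beside those of all genes are therefore descriptive and no evidence about the p53 programme.

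**Figure D1:**
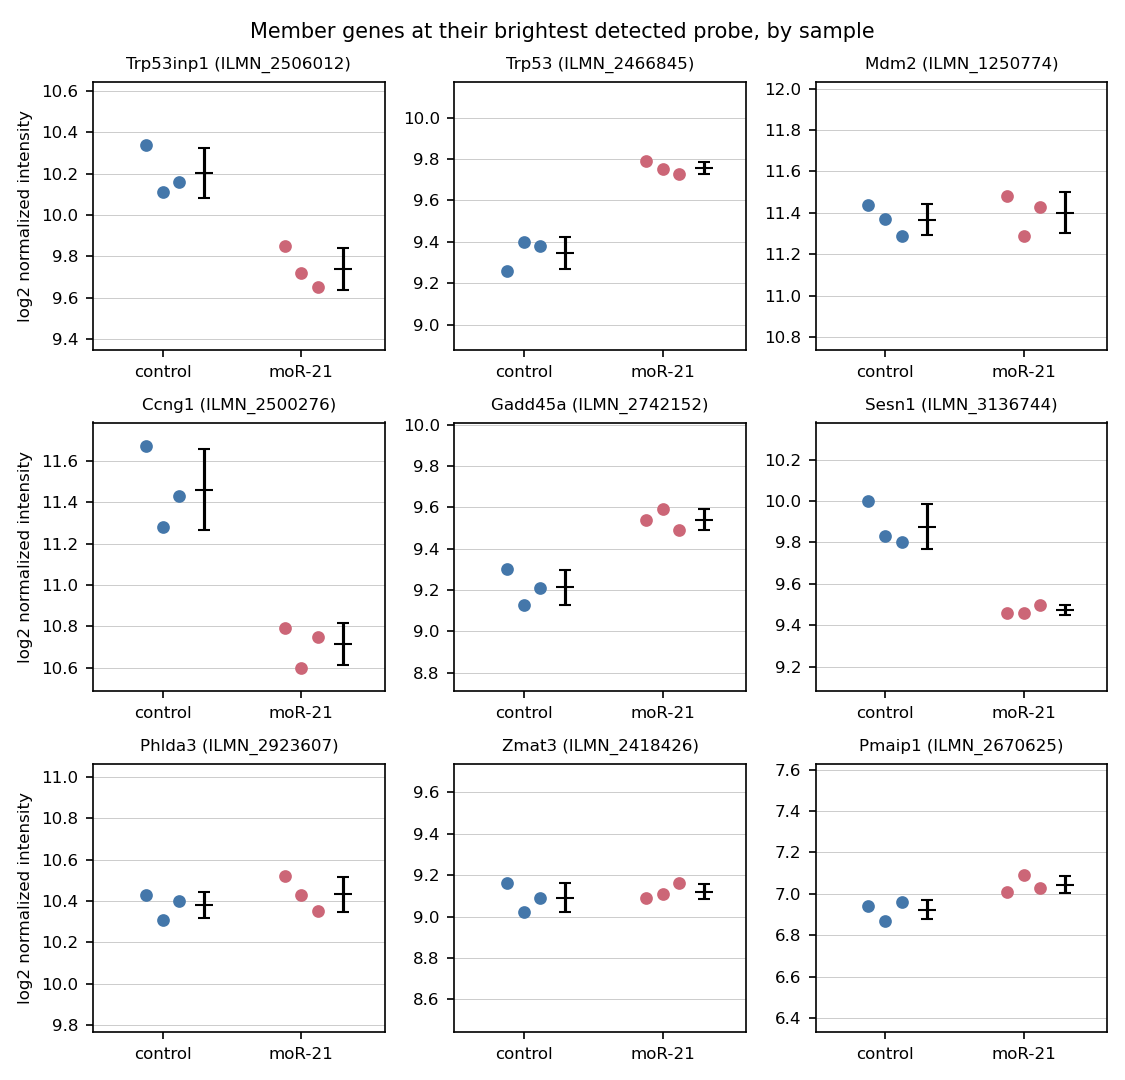
Normalized log2 signal of the brightest detected probe of each of the 9 detected genes in the 3 control and 3 moR-21 samples. Points are samples, bars show the mean ± SD (n = 3), and each panel spans the same number of log2 units; Trp53inp1, Ccng1 and Sesn1 lie lower and Trp53, Gadd45a and Pmaip1 higher in all 3 moR-21 samples, while the groups overlap for Mdm2, Phlda3 and Zmat3.

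With 3 samples against 3, a two-sided exact permutation test of a single probe cannot go below p = 0.1, so that the adjusted p-values below rest on the spread that limma shares across probes. The labels do not say that the samples of a treatment came from separate cultures, and the p-values then measure only the spread between these samples. The SD of the log2 difference over probes was 0.091 to 0.103 between arrays of the same sample (2 pairs) and 0.1 to 0.119 between single arrays of different samples of the same treatment (10 pairs). Between samples of the same treatment, with repeat arrays averaged, it was 0.091 to 0.111, which overlaps the range of the repeat arrays. Arrays measure bulk RNA, in which fewer cells of a type and less RNA per cell cannot be told apart.

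Trp53 itself was up-regulated after the moR-21 mimetic. Its single probe gave normalized log2 signals of 9.26, 9.40 and 9.38 in the control samples and 9.79, 9.75 and 9.73 in the moR-21 samples. The lowest moR-21 sample lay above the highest control sample. The means were 9.34 ± 0.072 and 9.75 ± 0.030 (SD, n = 3 each), which gave a log2 fold change of 0.41 with a standard error of 0.050 (95% confidence interval 0.30 to 0.52) and a limma adjusted p of 2.33e-05, a 1.33-fold rise. This call was close to the fold cutoff. Without control sample 1, the lowest of the controls, the log2 fold change was 0.37 and no longer called, and with normexp background correction from the detection p-values it was 0.46 with an adjusted p of 0.00202. The transcript level does not show how much p53 protein the cells held.

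Mdm2, which tags p53 for destruction, was measured by 2 detected probes, and neither was called. The brighter probe read 11.44, 11.37 and 11.29 in the control samples and 11.48, 11.29 and 11.43 in the moR-21 samples, and the groups overlapped. Its log2 fold change was 0.03 (95% confidence interval −0.09 to 0.16, limma adjusted p = 0.735), and the interval leaves out the 1.3-fold cutoff in both directions. The dimmer probe read 10.74, 10.56 and 10.55 in the control samples and 10.89, 10.82 and 10.83 in the moR-21 samples. All 3 moR-21 samples were higher there, with a log2 fold change of 0.23 (0.11 to 0.35) and an adjusted p of 0.00536. The 2 probes therefore gave unlike values, and their log2 fold changes differed by −0.20, brighter minus dimmer, with no overlap of the treatments in the per-sample difference between the probes. Another Mdm2 probe was not above background on any array (detection p-value 0.0501 to 0.952).

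Trp53inp1 (chromosome 4, 11156441 to 11174379 in GRCm38.p6) was down-regulated to 72.4% of its control level at its brighter probe. That probe read 10.34, 10.11 and 10.16 in the control samples and 9.85, 9.72 and 9.65 in the moR-21 samples. The treatments did not overlap, and the highest moR-21 sample was below the lowest control sample. The means were 10.21 ± 0.124 and 9.74 ± 0.103 (SD, n = 3 each), a log2 fold change of −0.47 with a standard error of 0.066 (95% confidence interval −0.61 to −0.32) and a limma adjusted p of 9.24e-05. Among the 11651 detected probes this was the change of rank 293 from the lowest. Arrays A and B of control sample 1 read 10.24 and 10.45, and those of moR-21 sample 3 read 9.65 and 9.64, so that the repeat arrays of this control sample differed by nearly as much as the 3 control samples did. The dimmer Trp53inp1 probe had deposited intensities of 147 to 207, not far above the array medians, and read 7.54, 7.52 and 7.72 in the control samples and 7.17, 7.24 and 7.28 in the moR-21 samples. It was lower in the 3 moR-21 samples as well. Its log2 fold change of −0.36 (standard error 0.058, −0.49 to −0.24, adjusted p = 0.000251) fell short of the fold cutoff, and it was called under 6 of 20 alternative settings, namely without control sample 1 (−0.39), without control sample 2 (−0.40), without moR-21 sample 3 (−0.38), with array A alone (−0.41), and with normexp correction. The correction moved this dim probe most, to −0.71 from the detection p-values (adjusted p = 0.00158) and to −0.47 on the intensities with an offset of 50. The brighter probe was called under 18 of the 20. With normexp correction from the detection p-values its adjusted p was 0.00397 at a log2 fold change of −0.51, and a 1.5-fold cutoff also ended the call.

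Ccng1, which encodes cyclin G1, a p53 target that recruits a phosphatase to Mdm2, had the largest change among the 9 detected genes. Its brightest probe read 11.67, 11.28 and 11.43 in the control samples and 10.79, 10.60 and 10.75 in the moR-21 samples. All 3 moR-21 samples were lower than every control sample. The means were 11.46 ± 0.197 and 10.71 ± 0.096 (SD, n = 3 each), and the log2 fold change was −0.75 (standard error 0.081, −0.92 to −0.58, limma adjusted p = 8.16e-06), which left 59.5% of the control level. The call was made under all 20 alternative settings. The other 2 Ccng1 probes also separated the treatments and were called, with log2 fold changes of −0.50 (adjusted p = 3.72e-06) and −0.40 (adjusted p = 5.69e-05). The last of these was the dimmest, with control samples between 8.96 and 9.09 and moR-21 samples between 8.55 and 8.71, and its call was lost under 6 of the 20 settings, among them the fits without control sample 2 (−0.37) and without moR-21 sample 1 (−0.36).

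Sesn1, a sestrin that restrains mTOR signalling and oxidative stress, was down-regulated at its brighter probe. This probe read 10.00, 9.83 and 9.80 in the control samples and 9.46, 9.46 and 9.50 in the moR-21 samples, without overlap. The log2 fold change was −0.41 (standard error 0.056, −0.52 to −0.29, limma adjusted p = 6.85e-05), close to the fold cutoff. Without control sample 1, the highest of the controls, it was −0.34 and not called, with array A alone of the repeated samples it was −0.37 and not called, and with normexp correction from the detection p-values the adjusted p was 0.00346 at −0.45. The dimmer probe read 7.67, 7.55 and 7.51 in the control samples and 7.46, 7.41 and 7.37 in the moR-21 samples. It was lower too, but by less, with a log2 fold change of −0.17 (−0.28 to −0.05, adjusted p = 0.0257), and was not called. With normexp correction from the detection p-values it was −0.31 and still not called. The 2 probes' changes differed by −0.24, and the per-sample difference between them did not overlap between the treatments.

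**Figure D2:**
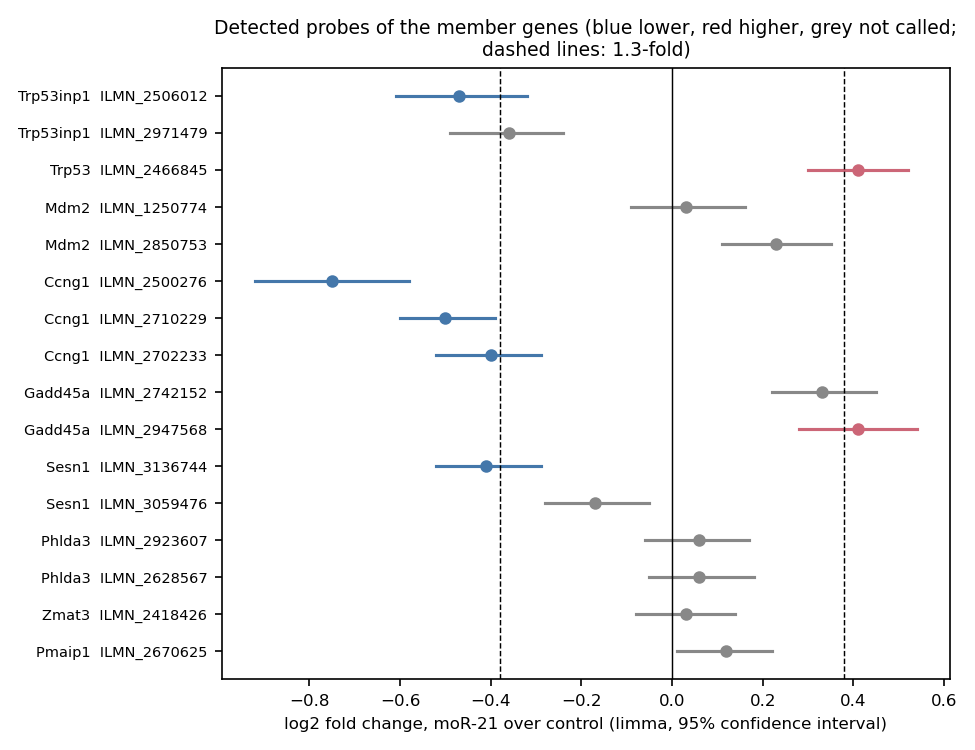
Log2 fold change, moR-21 over control, of each of the 16 detected probes of the 9 genes, with its 95% confidence interval from limma (n = 3 samples each) and dashed lines at the 1.3-fold cutoff. All 3 Ccng1 probes and both Trp53inp1 probes lie below 0, both Gadd45a probes and the Trp53 probe lie above 0, and the paired probes of Mdm2 and of Sesn1 lie apart.

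Gadd45a, a growth arrest gene that binds PCNA and stress kinase regulators, lay higher after the mimetic at both of its probes, and only the dimmer was called. The brighter probe read 9.30, 9.13 and 9.21 in the control samples and 9.54, 9.59 and 9.49 in the moR-21 samples. The treatments did not overlap, but the log2 fold change of 0.33 (standard error 0.053, 0.22 to 0.45, limma adjusted p = 0.000254) was below the fold cutoff. The dimmer probe read 8.02, 7.87 and 8.08 in the control samples and 8.36, 8.51 and 8.34 in the moR-21 samples, and was called at 0.41 on the log2 scale (standard error 0.061, 0.28 to 0.54, adjusted p = 0.000136). That call was lost without control sample 2 (0.35), without moR-21 sample 2 (0.36) and with normexp correction from the detection p-values (0.58, adjusted p = 0.00287). The brighter probe was not called under any of the 20 settings. Averaged over its probes, Gadd45a had a log2 fold change of 0.37 and was not called, and by the same average Sesn1 (−0.29) was not called, while Trp53inp1 (−0.41), Ccng1 (−0.55) and Trp53 (0.41) were.

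Phlda3 and Pmaip1 were not called, and Perp was not detected. Phlda3, which competes with Akt for membrane lipids, was read by 2 probes with log2 fold changes of 0.06 each. Their 95% confidence intervals, −0.06 to 0.17 and −0.05 to 0.18, leave out the 1.3-fold cutoff, and the treatments overlapped at both. Pmaip1, the BH3-only protein Noxa, was dim, with deposited intensities of 113 to 133 at its detected probe. That probe read 6.94, 6.87 and 6.96 in the control samples and 7.01, 7.09 and 7.03 in the moR-21 samples. The moR-21 samples were all higher, by a log2 fold change of 0.12 (0.01 to 0.22, limma adjusted p = 0.0776). With normexp correction from the detection p-values the value was 0.34 and still not called. A second Pmaip1 probe was not above background on any array (detection p-value 0.0313 to 0.477). The single probe of Perp, a membrane protein of desmosomes and p53-dependent apoptosis, was not above background either (0.222 to 0.881), and no change can be given for it.

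Zmat3, an RNA-binding zinc finger protein induced by p53, was read by a single probe. Its signals were 9.16, 9.02 and 9.09 in the control samples and 9.09, 9.11 and 9.16 in the moR-21 samples, which overlapped. The log2 fold change was 0.03 (−0.08 to 0.14, limma adjusted p = 0.705). Over the 16 probes, the moR-21 samples lay wholly below the controls at 7, wholly above at 5 and overlapped at 4, where over all detected probes 21.2% lay below, 23.7% above, and 45% did not overlap.

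**Figure D3:**
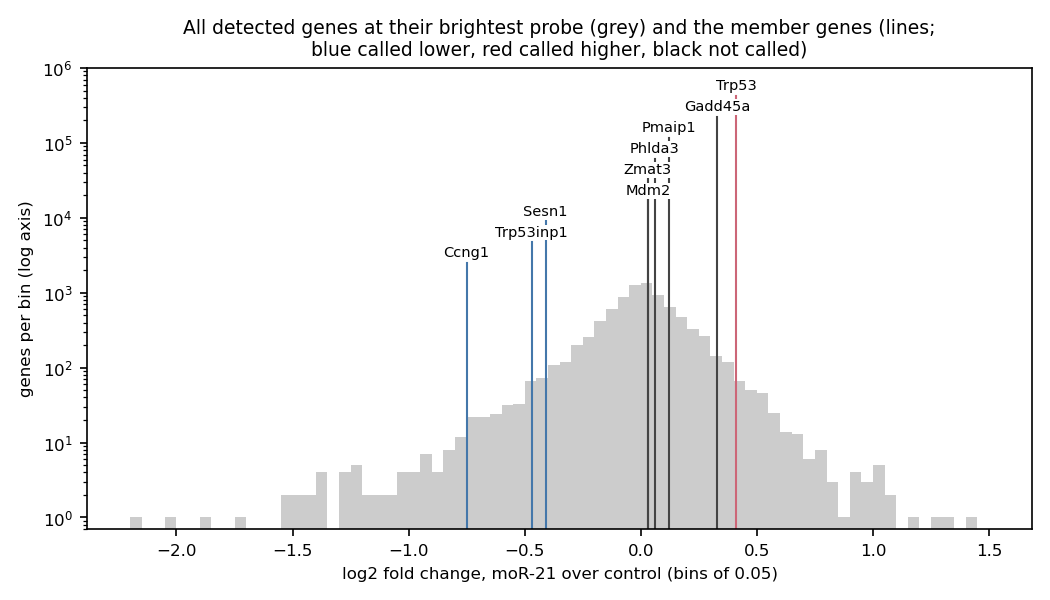
Distribution of the log2 fold change, moR-21 over control, of all 8727 detected genes at their brightest probe (grey, bins of 0.05, log axis), with a line for each of the 9 detected genes of interest; the height of a line has no meaning and separates the labels. Ccng1, Trp53inp1 and Sesn1 lie in the lowest 5% of genes, which ends at −0.35, and Trp53 and Gadd45a above the 95% point of 0.32.

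The rest of the p53 pathway was read from 5 lists of regulators, targets and paralogues, 86 symbols without the 10 genes above; the array held 80 and 64 were detected. Of these 64 genes, 2 were called lower and 3 higher (7.81%), a share near the 7.79% of all genes, and their median log2 fold change was 0.04. The count of 5 was 2 without control sample 1, 3 with median scaling and 9 with normexp correction on the intensities (offset 50). None of the 19 detected regulators of p53 was called, with log2 fold changes from −0.34 to 0.30, and Mdm4, the partner of Mdm2, was not detected at any of its 3 probes. Among the 39 detected genes listed as p53 targets outside the 10 genes, 1 was called lower and 3 higher (10.3%).

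Cdkn1a, the p21 inhibitor of cyclin-dependent kinases and the best known p53 target in cell cycle arrest, had a fold change of 0.04 on the log2 scale (limma adjusted p = 0.587) and was not called. Of the 7 detected genes on the list of arrest targets, Gas6, a ligand of TAM receptor kinases, was the 1 called, at the edge of the cutoff. Its control samples read 10.31, 10.29 and 10.24 and its moR-21 samples 9.96, 9.95 and 9.79 (−0.38, limma adjusted p = 7.36e-05). Whether Gas6 depends on p53 or acts in arrest in these cells was not tested. Of the 15 detected death targets, Siva1, an apoptosis-inducing adaptor, was called higher, with control samples of 10.80, 10.97 and 10.93 and moR-21 samples of 11.30, 11.23 and 11.34 (0.39, adjusted p = 7.41e-05). The pro-apoptotic genes Bax (0.17, adjusted p = 0.066) and Bbc3 (0.04, adjusted p = 0.606) were not called. Of the 17 targets of repair and metabolism, Dcxr, a xylulose reductase (0.40, adjusted p = 0.000185), and Gdf15, a secreted stress cytokine (0.39, adjusted p = 0.000398), were called higher.

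Among 9 detected genes on the list of paralogues of the genes of interest, Gadd45b was called lower. Its control samples read 7.92, 7.75 and 7.94 and its moR-21 samples 7.43, 7.47 and 7.43 (−0.43, limma adjusted p = 3.9e-05). It thus lay on the opposite side of 0 from Gadd45a, whose probes gave 0.33 and 0.41. None of 11 detected autophagy genes was called, with a median log2 fold change of 0.11 and a range of −0.29 to 0.34. The calls of Gas6, Siva1 and Dcxr were each kept under 14 of the 20 alternative settings, that of Gdf15 under 11 and that of Gadd45b under 19.

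**Figure D4:**
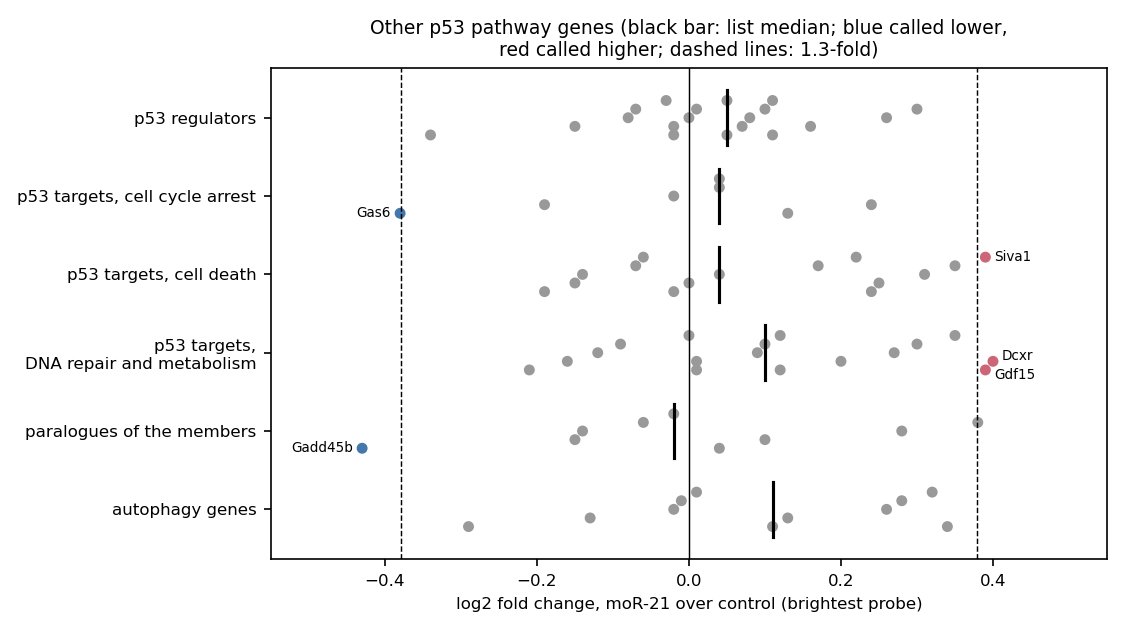
Log2 fold change, moR-21 over control, of the detected genes of 5 p53 pathway lists and of autophagy genes, each at its brightest probe; points are genes, black bars are list medians, and dashed lines mark the 1.3-fold cutoff. The 6 medians lie between −0.02 and 0.11, and the 5 called genes, Gas6, Siva1, Dcxr, Gdf15 and Gadd45b, are coloured and named.

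The gene patterns most like that of Trp53inp1 were sought over the 6 samples, by the mean absolute distance between log2 profiles centred on their own means. The nearest were Tollip (distance 0.044), 2510009E07Rik (0.045), Ostm1 (0.046), Sptlc1 (0.048) and Tfb2m (0.052). These 5 genes were called lower, with log2 fold changes of −0.41, −0.41, −0.52, −0.45 and −0.39. Sesn1 was the nearest of the p53 genes, at a distance of 0.068 and rank 39 of 8726, and Ccng1 came at 0.142 and rank 877, since its fall was larger. Trp53, which moved the other way, was at 0.438 and rank 8481. The measure takes in the difference between the treatments, so that it groups genes with a fall of the same size.

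Marker genes of cell types moved with the treatment, and their part in the changes of the p53 genes was not tested. Of 10 endothelial markers 2 were detected, Pecam1, Cdh5, Tek, Tie1, Kdr, Emcn, Esam and Cldn5 being not detected, and their summed normalized signal was 407 to 438 in the control and 403 to 417 in the moR-21 samples. Of 10 smooth muscle markers 9 were on the array and 7 detected, without the defining contractile genes Cnn1 and Myh11, and their sum was 10636 to 11018 in the control and 13437 to 14322 in the moR-21 samples. Acta2, smooth muscle actin, was by far the brightest of them and the 1 called, with a rise of 0.40 on the log2 scale (limma adjusted p = 2.14e-05). The others were not called, with Des, the filament protein desmin, at −0.38 (adjusted p = 8.6e-05), Smtn at −0.05, Tpm2 at 0.04, Lmod1 at 0.05, Tagln at 0.20 and Mylk at 0.24. Tagln and Lmod1 were dim, with control means of 6.74 and 6.79, close to the 6.61 of the undetected Perp probe. With Acta2 bright, Cnn1 and Myh11 not detected and most endothelial markers not detected, the markers did not settle the cell type on their own. The fibroblast markers, 5 of 6 detected, summed to 13920 to 14485 in the control and 11297 to 12541 in the moR-21 samples, and Lum, the matrix proteoglycan lumican, was the 1 called (−0.56, adjusted p = 2.21e-06). The mesothelial markers, 2 of 6 detected, summed to 771 to 780 and to 402 to 416. Upk3b was called lower at all 3 of its probes, with a log2 fold change of −1.24 at the brightest (limma adjusted p = 2.51e-10). Krt19, the other detected mesothelial marker, was at −0.13 with overlap of the treatments and was not called. The macrophage markers, 3 of 8 detected, summed to 1622 to 1688 and to 1465 to 1498. The brightest of these, Cd14, was at −0.27 and not called, Csf1r was at −0.01, and Lyz2, macrophage lysozyme, was called higher (0.48, adjusted p = 1.79e-06).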

How the data were processed

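The authors deposited non-normalized probe intensities from Illumina mouse beadchips, with a detection p-value beside each deposited intensity. No background correction is stated for them, the study's methods name quantile normalization, lumi and limma, and 0 columns were left without a sample. Here the 8 arrays were quantile normalized together, log2 transformed and averaged within a sample. The treatments were then compared with limma 3.58.1 (lmFit and eBayes, R 4.3.3) over 11651 detected probes (detection p-value below 0.01 on 1 array or more), with Benjamini-Hochberg adjustment over all of them and no covariate. The code was tested on simulated data first. Median intensities were 102 to 109 on control and 103 to 107 on moR-21 arrays, with 10290 to 10508 and 10285 to 10512 detected probes. The number of arrays limits the precision.

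Named were all 10 genes of interest with every probe, called genes of each pathway list (up to the 4 largest), Cdkn1a, Bax, Bbc3 and Mdm4 whether called or not, and the 5 profiles nearest to Trp53inp1. Cell type markers and the genes of the closing observations were named besides. The members, lists and tests were chosen with earlier results of these data known. The symbols printed are those of the array table, except that Cop1, Pidd1 and Reprimo stand there as Rfwd2, Lrdd and Rprm. Positions and promoters are from RefSeq (GRCm38.p6). Samples with the same replicate number were not treated as pairs. The correlation of their deviations was 0.19, 0.04 and 0.06, where over 0.1 in each was required. This does not exclude a pairing, and a fit with a replicate block is given below. The moR-21 sequence was not used here.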

Additional observations from a re-analysis of the deposited data

How the results depend on the processing

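The alternatives were other background corrections, scalings and detection filters, array A or B alone, all 8 arrays, a trend in eBayes, a replicate block, each sample left out, and other cutoffs. With normexp from the detection p-values, 1 of the members was called lower and 0 higher, against 3 and 1, and 3 and 0 of their probes, against 5 and 2. At a 1.5-fold cutoff these were 1 and 0 genes and 1 and 0 probes, with 260 of all probes called against 811 and 0 of the other p53 list genes against 5. The list count was 9 with normexp on the intensities (offset 50) and 3 with median scaling. Leaving out 1 sample gave 2 to 3 member genes lower and 0 to 1 higher (0 without control sample 1), 4 to 6 member probes lower and 1 to 2 higher (1 without control sample 1, control sample 2 or moR-21 sample 2), 2 to 6 list genes (2 without control sample 1) and 772 to 851 probes in all. The brighter Mdm2 probe changed sign, at −0.01, without control sample 3 and without moR-21 sample 1 (range −0.01 to 0.09), and Zmat3 did at −0.01 without control sample 2 (range −0.01 to 0.06). With the replicate block, 450 probes were called lower and 365 higher, against 448 and 363, and the same 4 member genes were called. The causes of these shifts were not tested. With normexp from the detection p-values, the dim Pmaip1 probe moved from 0.12 to 0.34 and the dimmer Trp53inp1 probe from −0.36 to −0.71. Whether background compresses the fold changes of such dim probes was not tested.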

Other observations

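Other p53 pathway genes passed the adjusted p of 0.002 but not the fold cutoff, and they were chosen for mention with their values known. The share of all detected genes that passed this adjusted p alone is not given here. The number of genes named is therefore not a result about the pathway. Of the regulators, Cop1, a ubiquitin ligase for p53, had a fold change of −0.34 on the log2 scale (limma adjusted p = 0.00116), while the checkpoint kinase Chek2 (0.26, adjusted p = 0.00057) and the deacetylase Sirt1 (0.30, adjusted p = 0.000978) had positive values. Of the targets, Pidd1 (0.35), Triap1 (0.31), Ddb2 (0.27), Rps27l (0.30) and Mgmt (0.35) had positive values, with limma adjusted p-values between 8.48e-05 and 0.000691. So did Reprimo (0.24, adjusted p = 0.00144) and, from the list of paralogues, Phlda1 (0.38, adjusted p = 4.04e-05) and Zmat5 (0.28, adjusted p = 0.000432). The kinship of Zmat5 with Zmat3 was not examined. The autophagy genes Gabarapl1 (0.34), Wipi1 (0.32) and Map1lc3a (0.28), of which the first and the last encode proteins of the Atg8 family, also had positive values. In each of these genes the treatments did not overlap. The genes were chosen by their adjusted p, which makes this likely, so that it adds no support. The 45% of all detected probes without overlap were not chosen in this way. Map1lc3b, of the same family as Map1lc3a, went the other way at −0.29 (limma adjusted p = 0.0369), with overlap of the treatments. Of the 11 detected autophagy genes, 4 had negative and 7 positive values.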
